A study of Mus musculus with 6 samples.

Results

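A set of 10 genes of the Wnt pathway was followed in RNA from 3 samples of E18.5 fetal and 3 samples of adult basal mouse mammary cells. They were the R-spondin receptors Lgr4, Lgr5 and Lgr6, the stem cell marker Procr, the pathway targets and nuclear factors Axin2, Lef1 and Tcf7, the co-receptors Lrp5 and Lrp6, and the Dickkopf family member Dkk3. The genes were chosen by name, and all 10 were found among the 20660 genes that could be matched to probes of the array, through 13 probes. Both populations came from mammary glands of female C57Bl6J mice of no stated genotype change or treatment. The fetal cells were taken at embryonic day 18.5 and sorted for high EpCAM and for CD49f, and the adult basal cells were taken at 8 to 12 weeks of age and sorted for EpCAM and CD49f and for absence of BP-1. Cells carrying CD31, CD45 or Ter119 were removed from both. Each sample was hybridized to its own one-color Agilent array, and no spot was saturated. The adult glands were digested overnight and the fetal glands for a shorter time, so that age, digestion and sort gate cannot be told apart in this design. Whether a biological replicate was 1 animal or a pool of animals is not given in the sources used here.

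Wnt ligands act through a Frizzled receptor paired with the co-receptor Lrp5 or Lrp6, and the signal keeps β-catenin from being destroyed so that it can join TCF/LEF factors on DNA. R-spondins, bound by Lgr4, Lgr5 or Lgr6, raise the sensitivity of a cell to Wnt by taking ubiquitin ligases that remove Frizzled off the surface. In the mammary gland the pathway is known for its part in forming the embryonic buds and in maintaining the cells that can regenerate a gland, and Lgr5, Axin2 and Procr have each been used to mark such cells. None of these genes is a direct measure of signaling, and Axin2 is the target most often read for that purpose.

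The 10 genes divided into a few with large differences and several with little difference. Procr was 28.9-fold higher in adult basal cells, Dkk3 was 7.49-fold higher in adult basal cells, Lgr5 was 6.25-fold higher in fetal cells and Lgr4 was 2.15-fold higher in adult basal cells. The differences of Axin2, Tcf7, Lgr6, Lrp5 and Lrp6 did not pass the test, and Lef1 was too dim to be tested. Differences are given below as log2 fold changes of fetal over adult basal cells with the standard error (SE) and 95% confidence interval from limma, for the brightest tested probe of each gene, and levels as log2 normalized intensity. A gene was called at an adjusted p of at most 0.05 and a change of at least 1 log2 unit, with p-values adjusted over all 20448 tested probes. Holm p and Benjamini-Hochberg p below are these adjusted values. With Holm's adjustment 1 of the 9 tested genes was called, Procr, in the adult basal direction, where 5.21% of all 15734 tested genes were called. None was called in the fetal direction, where 6.03% of all genes were. With Benjamini-Hochberg adjustment, 3 of the 9 were called in the adult basal direction (Procr, Dkk3 and Lgr4) against 13.9% of all genes, and 1 in the fetal direction (Lgr5) against 15.8% of all genes. With 9 tested genes, these counts do not set the group apart from the array as a whole. The values of both populations did not overlap for 5 of the 9 tested genes (Lgr4, Lgr5, Procr, Lrp5 and Dkk3), and the same held for 68.4% of all tested genes. The median change of the 9 was -0.22 and their median absolute change was 0.30, beside -0.04 and 0.53 over all tested genes. With 3 arrays against 3, the smallest p of an exact two-sided permutation test of a single gene is 0.1, and the calls therefore depend on limma's pooling of variance over all probes. RNA from a sorted population does not show whether fewer cells expressed a gene or each cell held less of its RNA.

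**Figure D1:**
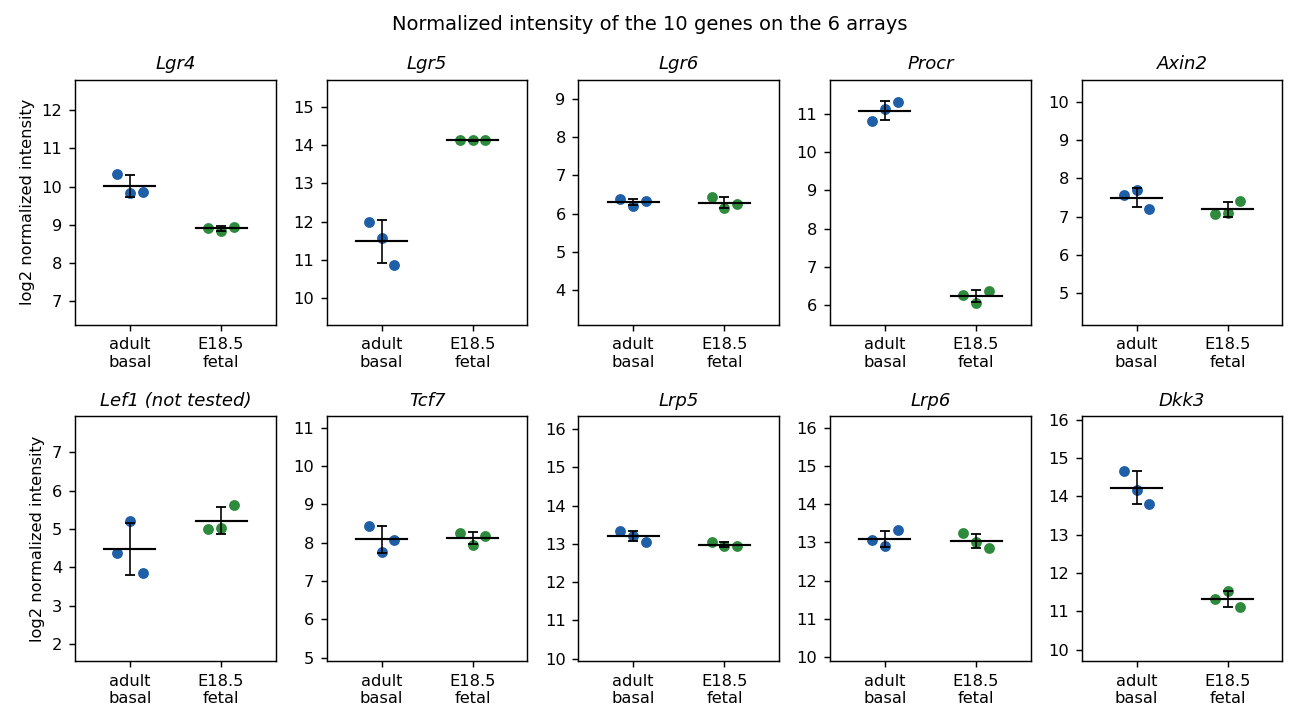
Log2 normalized intensity (vertical axes, each spanning 6.4 log2 units) of the main probe of each gene on the 3 adult basal arrays (blue) and the 3 E18.5 fetal arrays (green), with group means (horizontal lines) and SD (error bars, n = 3). The fetal points lie above all adult points for Lgr5 and below all of them for Procr, Dkk3, Lgr4 and Lrp5, and levels of different genes are not comparable because each comes from another probe.

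Among the R-spondin receptors, Lgr5, which marks stem cells in several epithelia, was the one higher in fetal cells. Its intensity was 12.00, 11.58 and 10.87 on the 3 adult basal arrays and 14.14, 14.12 and 14.12 on the 3 fetal arrays. The fetal values lay close together and well above every adult value, while the adult values were spread widely (SD 0.57 against 0.01 in fetal cells, n = 3 each). The change of Lgr5 was 2.64 (SE 0.26, interval 2.03 to 3.26), with a Benjamini-Hochberg p of 9.3e-05 and a Holm p of 0.28 (limma). Leaving out adult basal replicate 3, the lowest adult value, gave a change of 2.33, and leaving out adult basal replicate 1 gave 2.90. Lgr4, the more broadly expressed member of the family, went the other way. Its intensity was 10.34, 9.83 and 9.86 in adult basal cells and 8.92, 8.85 and 8.95 in fetal cells. All adult arrays were above all fetal arrays, by less than for Lgr5, and adult basal replicate 1 was the highest. The change of Lgr4 was -1.10 (SE 0.15, interval -1.46 to -0.74), with a Benjamini-Hochberg p of 5.4e-04 and a Holm p of 1 (limma). Without adult basal replicate 1 it was -0.94, which is under the limit on size, so that the Benjamini-Hochberg call was lost. The call was also lost on all 6 arrays with normexp background correction, where the change was -0.99. Lgr6, known from skin and hair follicle, gave 6.38, 6.21 and 6.33 in adult basal cells and 6.44, 6.15 and 6.26 in fetal cells. These values overlapped on a probe that was well above background on all 6 arrays. The change of Lgr6 was -0.02 (interval -0.29 to 0.25), so a difference of 1 log2 unit in either direction lies outside the interval.

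Procr, the protein C receptor, a surface protein used to mark multipotent cells of the basal layer and known also from endothelium, had the largest difference of the 10 genes. Its intensity was 10.81, 11.13 and 11.31 on the adult basal arrays and 6.26, 6.07 and 6.37 on the fetal arrays. The groups were far apart compared with the spread within either (SD 0.25 in adult basal and 0.15 in fetal cells, n = 3 each), and the fetal signal, though low, was well above background on all 3 arrays. The change of Procr was -4.85 (SE 0.16, interval -5.22 to -4.49), with a Holm p of 1.3e-04 (limma), and 1.81% of the tested probes had a larger change in either direction. It was -4.80 on the first slide, which held 2 adult basal arrays and 1 fetal array, and -4.91 on the second, which held the reverse. With normexp background correction the change of Procr was -3.996, a difference of 15.95-fold.

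Axin2, a scaffold of the destruction complex that β-catenin induces as feedback, did not pass the test. Its main probe gave 7.56, 7.70 and 7.21 in adult basal cells and 7.06, 7.10 and 7.41 in fetal cells. The groups overlapped, with fetal replicate 3 above adult basal replicate 3. The change of Axin2 was -0.30 (SE 0.16, interval -0.68 to 0.08), with a Benjamini-Hochberg p of 0.15 (limma). A second, dimmer probe of Axin2 fell below the limit on low signal and was not tested. It gave 4.98, 5.25 and 6.25 in adult basal cells and 3.98, 4.06 and 5.01 in fetal cells, again with overlap, and was well above background on 2 of the 3 fetal arrays. Without the filter on low signal, its change was -1.14 (interval -2.17 to -0.11) with a Benjamini-Hochberg p of 0.07 (limma). Both probes thus gave lower means in fetal cells, and neither passed.

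The TCF/LEF genes encode the DNA-binding partners of β-catenin. Tcf7 gave 8.44, 7.76 and 8.06 in adult basal cells and 8.25, 7.93 and 8.18 in fetal cells on its main probe. All fetal values lay within the adult range, and the change of Tcf7 was 0.03 (SE 0.19, interval -0.40 to 0.47). A second probe of Tcf7, below the limit on low signal in both populations, overlapped as well, with 5.35, 4.53 and 5.06 in adult basal and 4.84, 4.27 and 5.35 in fetal cells. Lef1, which is known from the embryonic mammary bud, was measured near the lower end of the scale. Its intensity was 4.38, 5.21 and 3.85 in adult basal cells, where 2 of 3 arrays were well above background, and 4.99, 5.04 and 5.63 in fetal cells, where all 3 were. The groups overlapped through adult basal replicate 2. Without the filter on low signal the change of Lef1 was 0.74 (SE 0.37, interval -0.17 to 1.65), with a Benjamini-Hochberg p of 0.16 (limma), an interval too wide to separate no change from a change of more than 1 log2 unit.

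The co-receptors differed little. Lrp5 gave 13.33, 13.20 and 13.06 in adult basal cells and 13.05, 12.93 and 12.96 in fetal cells. Every fetal value was below every adult value although adult basal replicate 3 and fetal replicate 1 were nearly equal, and the change of -0.22 (SE 0.11, interval -0.47 to 0.04) had a Benjamini-Hochberg p of 0.12 (limma). Lrp6 gave 13.08, 12.90 and 13.32 in adult basal cells and 13.24, 13.01 and 12.87 in fetal cells on its main probe. The groups overlapped, with a change of -0.06 (interval -0.41 to 0.29). Its second probe gave 10.40, 9.33 and 10.64 in adult basal cells and 10.64, 10.44 and 10.29 in fetal cells, with adult basal replicate 2 alone far below the others. The change on that probe was 0.33 (SE 0.32, interval -0.43 to 1.1), so both probes left Lrp6 without a call. For Lrp5 and for the main probe of Lrp6 the interval did not reach 1 log2 unit in either direction.

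Dkk3, a secreted protein grouped by sequence with the Dickkopf inhibitors of Lrp5 and Lrp6, whose own effect on Wnt signaling varies with the cell, was lower in fetal cells. Its intensity was 14.67, 14.18 and 13.82 in adult basal cells and 11.32, 11.52 and 11.11 in fetal cells. All adult arrays lay above all fetal arrays, with the wider spread among the adult arrays (SD 0.43 against 0.21, n = 3 each). The change of Dkk3 was -2.90 (SE 0.22, interval -3.43 to -2.38), with a Benjamini-Hochberg p of 2.7e-05 and a Holm p of 0.055 (limma), just past the limit. It was -2.92 within the first slide and -2.87 within the second. The within-slide values of Lgr5 were 2.70 and 2.55, and those of Lgr4 were -1.18 and -0.93.

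**Figure D2:**
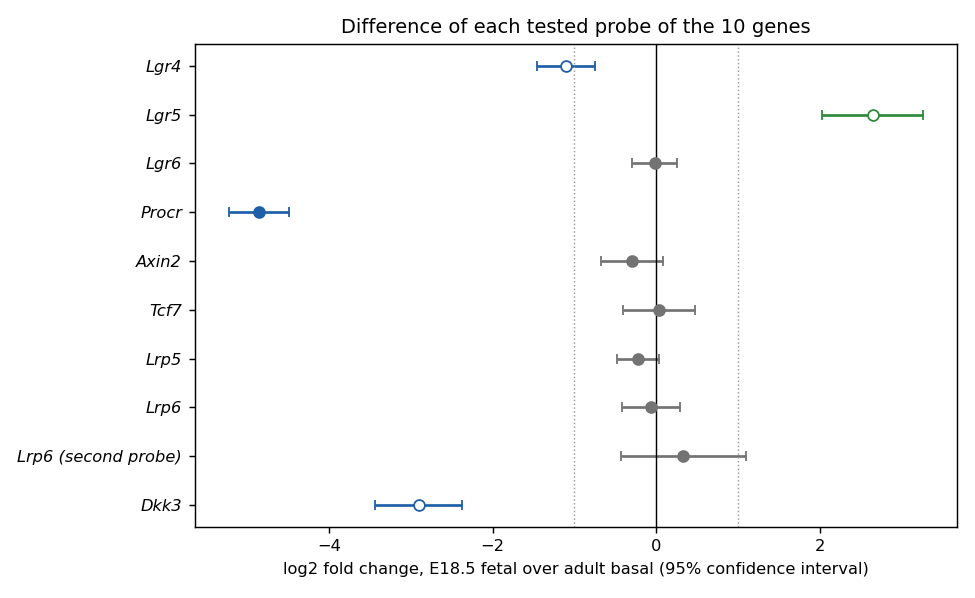
Log2 fold change of E18.5 fetal over adult basal cells (horizontal axis) with the 95% confidence interval of limma for each of the tested probes of the 10 genes. Filled blue marks the Holm call (Procr), open green and open blue mark genes called only with Benjamini-Hochberg adjustment, grey marks probes without a call, and dotted lines mark 1 log2 unit, which the intervals of Procr, Dkk3 and Lgr5 do not reach.

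Promoter sequence from RefSeq (build GRCm38.p6, 250 bases before to 50 bases after a transcript start) was at hand for 6 of the 10 genes, in 10 windows: Lgr4, Lgr6, Procr, Axin2, Lef1 and Tcf7. Lgr5, Lrp5, Lrp6 and Dkk3 had no entry. The windows of the called genes Procr and Lgr4 and of the feedback target Axin2 are printed 5′ to 3′ on the strand of the gene. Capitals mark the letters CTTTG, searched on both strands, which form the core of the longer sequence CTTTGAT that TCF/LEF factors prefer.
Procr, chr2:155750967-155751266, + strand: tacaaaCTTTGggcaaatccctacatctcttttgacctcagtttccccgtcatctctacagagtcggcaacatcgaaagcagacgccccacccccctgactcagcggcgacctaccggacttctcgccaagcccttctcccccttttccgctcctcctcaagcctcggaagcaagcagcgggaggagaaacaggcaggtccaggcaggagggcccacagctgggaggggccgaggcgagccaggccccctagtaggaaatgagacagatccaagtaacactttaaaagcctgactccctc
Lgr4, chr2:109917397-109917696, + strand: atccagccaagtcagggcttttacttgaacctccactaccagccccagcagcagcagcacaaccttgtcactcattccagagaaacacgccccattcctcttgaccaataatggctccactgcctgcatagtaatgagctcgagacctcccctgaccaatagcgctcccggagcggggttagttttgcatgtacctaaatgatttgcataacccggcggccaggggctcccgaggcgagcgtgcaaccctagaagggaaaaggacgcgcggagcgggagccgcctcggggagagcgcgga
Axin2, chr11:108920099-108920398, + strand: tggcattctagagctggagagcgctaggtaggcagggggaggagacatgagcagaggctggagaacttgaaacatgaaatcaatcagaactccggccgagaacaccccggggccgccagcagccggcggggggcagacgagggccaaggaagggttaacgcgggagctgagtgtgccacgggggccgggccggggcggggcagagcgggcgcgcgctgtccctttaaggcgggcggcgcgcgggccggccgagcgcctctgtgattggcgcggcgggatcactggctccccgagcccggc
The longer sequence CTTTGAT was in none of the 10 windows, and 3.73% of all 32851 promoter windows held it on either strand. The core was in 5 of the 10 windows and in 53.9% of all windows. It occurred once in the Procr window, starting at base -244 from the transcript start, in each of the 4 Lef1 windows, and in none of the windows of Lgr4, Lgr6, Axin2 and Tcf7. These matches describe the letters in these windows only.

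The rest of the pathway was followed in 6 lists holding 79 further genes, of which 70 were tested. Holm's adjustment called 11 of them, 7 higher in fetal and 4 higher in adult basal cells, and Benjamini-Hochberg adjustment called 21, 13 in fetal and 8 in adult basal cells. As shares of the 70, the Holm calls were 10% and 5.71%, beside 6.03% and 5.21% of all tested genes, and the Benjamini-Hochberg calls 18.6% and 11.4%, beside 15.8% and 13.9%, so that these counts are near the background of the array. The counts rest on the brightest probe of a gene. Where any tested probe was enough for a call, 13 genes were called by Holm's and 27 by Benjamini-Hochberg adjustment, a count added after the data were seen. A gene with several probes has more chances of a call by that rule. The share of all genes called by it was not computed, so these counts cannot be compared with the shares above. Genes named below at Benjamini-Hochberg only were picked after their values were seen. The calls lay mostly among receptors, antagonists and targets, with no Holm call among the main probes of cytoplasmic and nuclear components.

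Of the 14 Frizzled and other Wnt receptors tested, Holm's method called 3 higher in fetal and 1 higher in adult basal cells, and the median change was -0.27. Fzd9 gave 8.26, 7.85 and 7.39 in adult basal and 12.23, 12.19 and 12.53 in fetal cells, a change of 4.49 (SE 0.22, limma, Holm p 0.0027). Ror1 and Ror2, receptor tyrosine kinases for Wnt ligands, best known for signaling that bypasses β-catenin, were also higher in fetal cells, by 2.89 (SE 0.10) and 2.28 (SE 0.15). Fzd1 was higher in adult basal cells, with 12.26, 12.50 and 12.28 against 9.72, 9.83 and 9.67 in fetal cells and a change of -2.61 (SE 0.11, limma, Holm p 9.3e-04). Fzd7, which has been tied to mammary stem cell activity, changed by -2.20 (limma, Holm p 0.055, Benjamini-Hochberg p 2.7e-05), and its second probe by -1.99. In the list of R-spondins and their ubiquitin ligases, 4 of 6 genes were tested, with 1 Holm call. Rspo1, an R-spondin ligand, gave 6.48, 6.31 and 6.40 in adult basal and 8.49, 8.77 and 8.90 in fetal cells, a change of 2.32 (SE 0.13, limma, Holm p 0.0066). Rspo3 was well above background on all 3 fetal arrays and on none of the adult basal arrays, which makes it at least 1.49-fold higher in fetal cells, with no test. That bound sets the fetal mean against the lowest signal well above background on each adult array. Rspo2 was well above background on none of the 6 arrays.

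Among 12 tested of 16 secreted and membrane antagonists, the median change was 0.03, and the 2 Holm calls were both higher in fetal cells. Sostdc1, a secreted inhibitor of Wnt and BMP signaling, gave 7.91, 7.82 and 7.80 in adult basal and 12.76, 12.58 and 12.94 in fetal cells, a change of 4.92 (SE 0.12, limma, Holm p 2.0e-05), and its second probe changed by 4.33. Sfrp2, a secreted Frizzled-related protein, changed by 3.64 (SE 0.14). Kremen2 (2.90), Sfrp1 (1.38) and Sfrp4 (-1.10) were called with Benjamini-Hochberg adjustment only. Kremen2 was well above background on 2 of the 3 adult basal arrays and had a change of 2.19 with an offset of 16 before log2. The call of Sfrp4 was lost when either adult basal replicate 3 or fetal replicate 3 was left out, and its change was as small as -0.74. Dkk2 and Frzb were well above background on none. Dkk1 was below the limit on low signal and was not tested. It had 4.86, 4.18 and 5.87 in adult basal and 4.11, 3.64 and 3.22 in fetal cells, with all adult values higher and 1 of 3 fetal arrays well above background.

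The components between the membrane and the nucleus had the smallest differences of the 6 lists by main probe, with a median absolute change of 0.14 in the cytoplasmic and 0.42 in the nuclear list, against 0.53 to 1.58 in the others. Of 20 cytoplasmic transducers and members of the destruction complex tested, none was called by Holm's adjustment and 3 were called by Benjamini-Hochberg adjustment. β-catenin itself, Ctnnb1, changed by 1.13 and Amer1, a membrane scaffold of Apc, by 1.18, and Gsk3b, the kinase that marks β-catenin for destruction, by -1.19. The other probes of Gsk3b gave -1.25, which was called, and -0.87, under the limit on size and not called. Of the 12 nuclear partners of TCF tested, Ctnnbip1 (2.58) and Cby1 (1.97), which both bind β-catenin and hold it from TCF, were called by Benjamini-Hochberg adjustment, both higher in fetal cells, and none by Holm's on its main probe. Among the TLE co-repressors, which silence TCF targets, second probes of Tle2, Tle4 and Tle5 gave another result than the main ones, and those of Tle1 did not. Tle2 had 0.42 on its main probe, which was not called, and 1.81 on its second (limma, Holm p 0.011), and the second probes of Tle4 (1.46) and Tle5 (1.02) were called by Benjamini-Hochberg adjustment, as was that of Btrc, a ubiquitin ligase subunit for β-catenin (1.61), in the cytoplasmic list. In the nuclear list, Tcf7l2 had 0.17 on its main probe and 0.998 and 0.96 on its dimmer probes, just under the limit on size, and none was called. The median changes by main probe were -0.01 for the cytoplasmic and 0.34 for the nuclear list.

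Targets of the pathway other than Axin2 did not move together. Of 8 tested of 10, Holm's adjustment called 1 higher in fetal and 3 higher in adult basal cells, with a median change of -0.95. Ccnd1, the cell cycle regulator cyclin D1, which many signals besides Wnt induce, gave 8.57, 7.78 and 8.35 in adult basal and 14.81, 14.82 and 14.82 in fetal cells, a change of 6.59 (SE 0.20, limma, Holm p 7.9e-05). Nkd1, a feedback inhibitor induced by Wnt as Axin2 is, gave 11.52, 12.43 and 12.43 in adult basal and 7.48, 7.43 and 7.97 in fetal cells, a change of -4.50 (SE 0.27, limma, Holm p 0.011), and its second probe changed by -3.45. Ccn4, a matricellular protein, changed by -2.52 (SE 0.17) and Ascl2, a transcription factor of intestinal stem cells, by -1.82 (SE 0.12). Myc changed by -1.34 and was called by Benjamini-Hochberg adjustment only, and Bambi was well above background on no array. Nkd2, the paralog of Nkd1, had probes that disagreed. Its brighter probe gave 12.19, 12.45 and 12.24 in adult basal and 12.29, 12.51 and 12.14 in fetal cells, which overlapped (0.02, not called). Its second probe gave 6.81, 6.87 and 6.76 in adult basal and 10.25, 10.17 and 10.55 in fetal cells, a change of 3.51 (limma, Holm p 2.9e-04) in the direction opposite to Nkd1. A dimmer probe of Cd44 (1.25) was also called by Benjamini-Hochberg adjustment, while its main probe was not (-0.57).

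**Figure D3:**
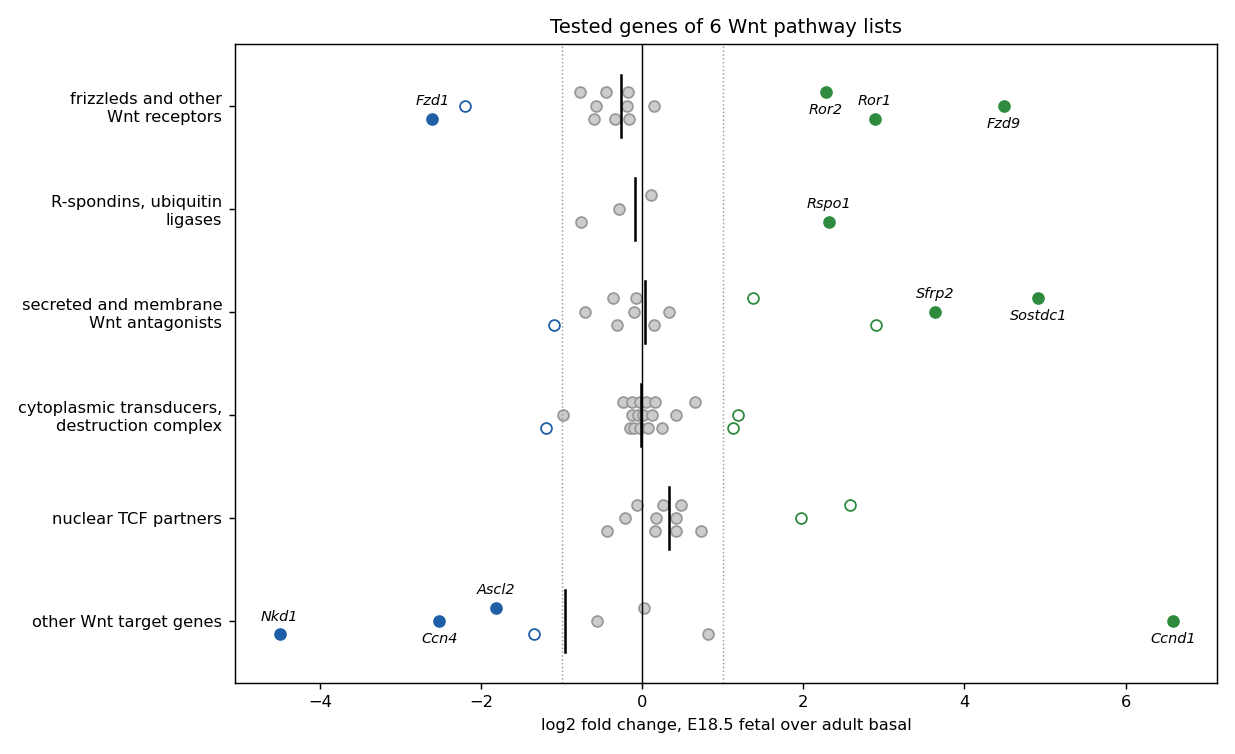
Log2 fold change of E18.5 fetal over adult basal cells (horizontal axis) for the brightest tested probe of each gene of the 6 pathway lists (rows), with the median of each list as a black line. Filled and named points are Holm calls, open colored points are Benjamini-Hochberg calls only, grey points have no call, and dotted lines mark 1 log2 unit. The widest spread is among receptors, antagonists and targets, from Nkd1 at -4.50 to Ccnd1 at 6.59.

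Not every Holm call of this group held when an array was left out, although each of the 11 genes kept its direction and its Benjamini-Hochberg call in every alternative in which it was tested, which for Ror1 leaves out normexp background correction. In those alternatives Fzd1, Ror1, Sfrp2, Sostdc1 and Ccnd1 also kept the Holm call. Fzd9 lost it without fetal replicate 1 (limma, Holm p 0.056). Ror2, Ccn4 and Ascl2 lost it without any 1 of the 6 arrays. Rspo1 lost it without adult basal replicates 1 or 3 or fetal replicates 2 or 3, and Nkd1 without adult basal replicate 3 or any 1 fetal replicate. With slide as a block, Ror2 (Holm p 0.12), Ascl2 (Holm p 0.075) and Ccn4 (Holm p 0.14) also lost the call in limma's fit. Without the filter on low signal these genes, Rspo1 and Nkd1 lost it. With all probes fitted, matched to a gene or not, Ror2 (limma, Holm p 0.053) and Ccn4 (limma, Holm p 0.063) lost it. With normexp background correction the changes of Ccn4 and Rspo1 were -1.77 and 1.70.

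The labels were checked against marker genes. The adult basal arrays carried the basal program, with Acta2, smooth muscle actin, at 18.56, 18.48 and 18.39 against 14.59, 14.55 and 14.07 in fetal cells. Of 8 basal markers, 6 were called higher in adult basal cells by Holm's adjustment, and Myh11, a smooth muscle myosin, changed most (-8.63). Krt14 (-1.20) was not called. The probes of Trp63, a transcription factor of basal cells, disagreed: the brighter gave -0.08 and was not called, and the other gave 13.69, 13.59 and 13.69 in adult basal and 10.61, 10.47 and 10.69 in fetal cells, a change of -3.06 (limma, Holm p 1.9e-04). Of 9 luminal markers, Elf5 (7.55), Kit (4.003) and Pgr (2.13) were called higher in fetal cells by Holm's adjustment, and Esr1 (-3.58) and Krt19 (-1.22) were called higher in adult basal cells by Benjamini-Hochberg adjustment only, Esr1 with 1 of 3 fetal arrays well above background. The main probe of Prlr was not called (-0.35), whereas its second probe was called by Holm's adjustment in the fetal direction (1.85). Krt18, the brightest of them over the 6 arrays, had a value of 0.58 and was not called. The genes followed here were therefore compared between populations that also differed in basal and luminal markers.

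Markers of other cells are given because Procr and Dkk3 are also expressed outside the epithelium. Of 8 fibroblast markers, 2 were called higher in adult basal cells by Holm's adjustment, Pdgfrb (-4.34) and Dcn (-3.78), and 4 by Benjamini-Hochberg adjustment. Their summed linear intensity was 17996, 22056 and 28659 on the adult basal arrays and 6259, 6436 and 7901 on the fetal arrays. Col1a2, the brightest of the list by mean log2 intensity over the 6 arrays, had a value of -0.90 and was not called, and Col1a1 had -0.01. On the adult basal arrays alone the probe of Dcn was the brightest. Brightness in these lists is that of a probe and does not rank the levels of different genes. Across the adult arrays the fibroblast sum and Procr were both lowest on replicate 1 and highest on replicate 3. The same order held for the endothelial sum without Kdr, given below. Dkk3 and Lgr5 were highest on replicate 1 and lowest on replicate 3. These orders of 3 arrays were picked after the values were seen, and no link between them was tested. Of 6 endothelial markers 5 were tested, and 3 were called higher in adult basal cells by Benjamini-Hochberg adjustment, Cdh5 (-2.70), Emcn (-1.79) and Cldn5 (-1.40), and none by Holm's. Pecam1, which encodes the CD31 used to remove endothelium, had a value of -0.14 and Kdr, the brightest of the list over the 6 arrays, -0.04, and neither was called. Tek was well above background on all 3 adult basal arrays and on no fetal array, at least 1.86-fold higher in adult basal cells, with no test. The endothelial sum was 12891, 13825 and 11275 on the adult basal and 12275, 10837 and 12607 on the fetal arrays, which overlapped, and most of it was the signal of Kdr. Without Kdr the sum was 1036, 1108 and 1146 on the adult basal and 653, 679 and 777 on the fetal arrays, with all adult values higher. The second probe of Kdr had -0.66 and was not called. No leukocyte marker of 5 tested was called by either adjustment; Csf1r was the brightest over the 6 arrays, and Cd3g was well above background on none of the arrays. Of 5 tested epidermal and hair follicle markers, Krt10, the brightest of the list over the 6 arrays but not on the adult basal arrays alone, where Krt71 was brighter, was called higher in fetal cells by Holm's adjustment (1.47), and its second probe was not called (0.98). Krt1 was called higher in fetal cells by Benjamini-Hochberg adjustment only (1.95). Krt27 was not tested and was well above background on 2 of 3 fetal arrays and no adult basal array, at least 1.96-fold higher in fetal cells, and Ivl was well above background on 1 fetal array only. No defining marker of fibroblasts or endothelium other than Tek was at background in either population. That does not show whether such cells were present, since 76.4% to 83.3% of all probes on an array were well above background. Such probes could be dim, and that of Pdgfrb had a fetal mean of 4.97, under the limit on low signal. Cells were sorted for EpCAM, which stromal cells lack, and CD31 was used against endothelium. Adult cells carrying BP-1, a stromal marker, were left out. The part of stromal or endothelial cells in the differences of Procr, Dkk3 and the other genes was not tested.

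**Figure D4:**
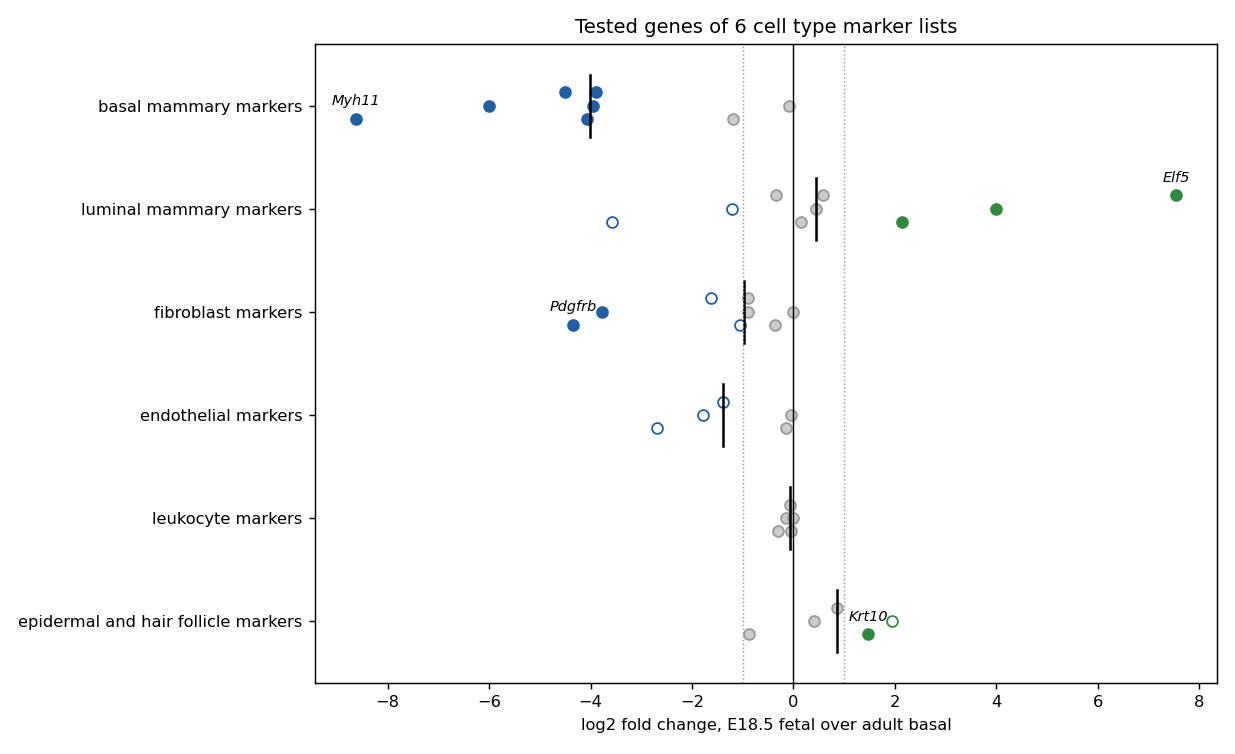
Log2 fold change of E18.5 fetal over adult basal cells (horizontal axis) for the brightest tested probe of each gene of the 6 marker lists (rows), with the median of each list as a black line. Filled points are Holm calls, of which the largest in each direction is named, open colored points are Benjamini-Hochberg calls only, and grey points have no call. Basal markers lie to the left, as low as -8.63 for Myh11, and Elf5 stands farthest to the right at 7.55.

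The 4 called genes kept their direction under other ways of processing the arrays. Across 17 other settings, the change of Procr ran from -4.99 to -3.996. The smallest was with normexp background correction, where the difference was 15.95-fold and not 28.9-fold, and its Holm p across the settings was at most 0.0050 (limma). Dkk3 ran from -3.10 to -2.68 and was called by Holm's adjustment in 6 of the 17. Lgr5 ran from 2.33 to 2.90 and was called by Holm's adjustment in 1 of the 17. Lgr4 ran from -1.19 to -0.94 and was called by Holm's adjustment in none, and with Benjamini-Hochberg adjustment in 15 of the 17. Procr, Dkk3 and Lgr5 kept the Benjamini-Hochberg call in all 17.

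**Figure D5:**
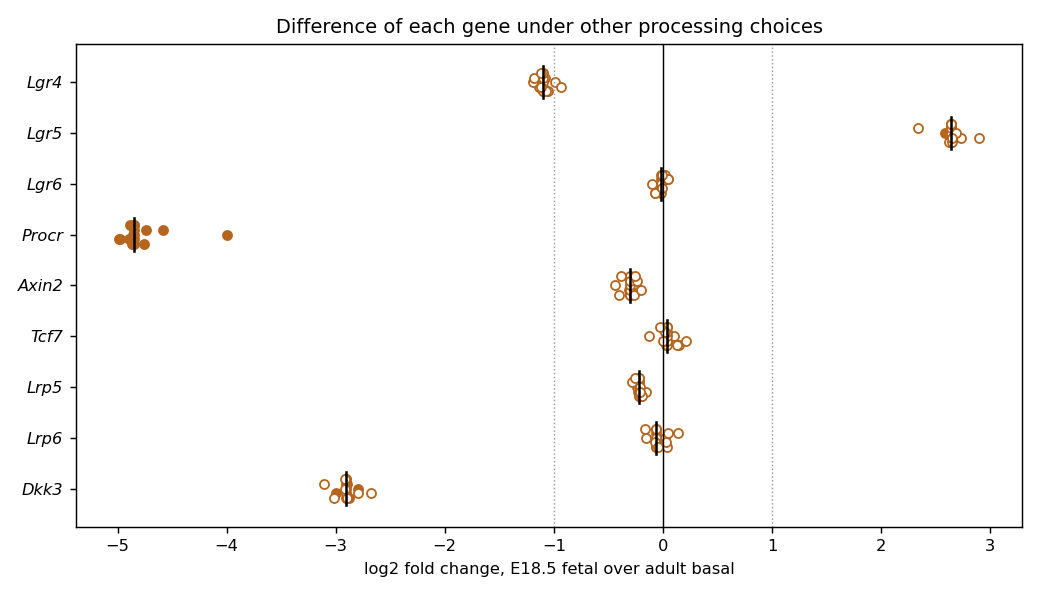
Log2 fold change of E18.5 fetal over adult basal cells (horizontal axis) of the 9 tested genes under the other processing settings (points, filled where called by Holm's adjustment), beside the value reported in the text (black line). Procr is filled throughout, from -4.99 to -3.996, and Lgr6, Tcf7 and Lrp6 scatter on both sides of 0. Lgr6 has no point with normexp or the offset of 16, and Axin2 none with normexp, since these probes were not tested there.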

How the data were processed

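Array images were processed by the authors (Agilent Feature Extraction, version 11.0.1.1 per the submitters' processing notes), who deposited spot intensity (background-subtracted processed signal, linear, with median and local background beside it). A second table, of log2 values, was deposited by the authors after their quantile normalization and served only as an alternative. The labels and the study's methods name different labelling kits.

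Here the processed signal was taken to log2 after removal of controls and of outlier spots (104 to 326 an array), repeated spots were merged into a mean per probe, and quantile normalization was applied across the 6 arrays. Accessions of 27235 of 55681 probes matched 20660 genes of the RefSeq table of GRCm38.p6, whose coordinates were not used for the probes because the array design names another build. K-means (k = 3, 100 starts) set a limit of 5.95 on low signal, and 20448 probes above it in at least 1 population were fitted with lmFit and eBayes (limma 3.58.1, R 4.3.3), after the study's methods and, for the single limit on pooled means, its script, but with probes kept by their match to RefSeq. The median SD between replicates was 0.12 in fetal and 0.18 in adult basal cells. The share of probes well above background ran from 76.4% to 83.3%. The number of arrays limits the precision. Whether the replicates came from separate animals is not stated beyond their being called biological, so p-values measure the spread between these samples. The fit was tested on simulated data. Tables and plots used Python, pandas and matplotlib.

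The 10 genes, the pathway and marker lists and the tests were chosen with earlier results of these data known, and the lists give no independent support. Named were all 10 genes with every probe, each pathway gene called by Holm's adjustment, and in each marker list the brightest gene, the genes of largest change called by Holm's adjustment and those at background on all arrays. Other names, among them genes called by Benjamini-Hochberg adjustment only, second probes and markers at background in 1 population, were chosen after their values were seen. Of 8 leukocyte markers, 1 was not matched. Alternatives were 75th percentile scaling, the deposited log2 values, normexp background correction (offset 50), an offset of 16, no or another low-signal filter, all probes, a variance trend with robust eBayes, the mean of a gene's probes, Benjamini-Hochberg adjustment, slide or replicate number as a block, and each array left out.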

Additional observations from a re-analysis of the deposited data

How the results depend on the processing

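Procr kept its Holm call under every alternative run. The count of the 10 genes called by Holm's adjustment, 1 in the values reported, was 2 with 75th percentile scaling, the deposited log2 values, an offset of 16, the variance trend with robust eBayes and averaging over probes, each time through Dkk3. It was 3 with normexp, through Dkk3 and Lgr5, and 4 with Benjamini-Hochberg adjustment. The Benjamini-Hochberg count of 4 became 3 with normexp and without adult basal replicate 1, where Lgr4 had a change under 1 log2 unit. Over all probes, the Holm count of 2270 became 1182 without the low-signal filter, where more probes were tested, 6133 with Benjamini-Hochberg adjustment, and 948 to 1949 with an array left out, where fewer samples were fitted. The pathway count of 11 became 7 without the filter, 18 with the variance trend, 21 with Benjamini-Hochberg adjustment, and 6 to 9 with an array left out. The cause of any of these shifts was not tested. Small differences changed sign. Lgr6 (-0.02) was 0.044 with slide as a block and ran from -0.10 to 0.047 with an array left out. Tcf7 (0.03) ran from -0.13 to 0.21 with an array left out. Lrp6 (-0.06) was 0.014 with normexp, 0.14 as the mean of its probes, 0.039 with slide as a block, and ran from -0.16 to 0.049 with an array left out. Under the other scalings and corrections the median change of all genes stayed between -0.05 and -0.03.

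Whether same-numbered replicates of both populations were paired is not given in the sources used here, and the main fit had no pairing. The correlations of their deviations from the group means were -0.03, 0.09 and 0.05, and not every array correlated best with its own number. Replicates of unlike number gave values from -0.13 to 0.12. With 3 arrays in each group these correlations cannot decide the question. With the replicate number as a block, 1302 probes, 8 pathway genes and, of the 10 genes, 1 by Holm's and 4 by Benjamini-Hochberg adjustment were called, and among pathway genes Ror2, Rspo1 and Ascl2 lost the Holm call. Slide as a block gave 1541, 8, 1 and 4. Probes below the limit on low signal, as for Lef1 and the dimmer probes of Axin2 and Tcf7, bear no firm statement.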
